A study of Mus musculus with 6 samples.

Results

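iPS4 is a mouse induced pluripotent stem (iPS) cell line, and it was compared here with RNA pooled from mouse embryonic stem (ES) cells across all genes on a 2-colour array. It comprised the 2 arrays labelled iPS4 of the 6 arrays in the series. Each array carried iPS4 RNA in one dye and the ES pool in the other. On array 1 (replicate 1) iPS4 was in Cy5, and on array 2 (replicate 2) it was in Cy3. The line was 1 expanded colony, picked for green fluorescence on day 12, of OG2 mouse embryonic fibroblasts, which carry a fluorescent reporter of Oct4. These fibroblasts had received pMX retroviruses for 16 genes. One set was Oct4 and Sox2 with Klf4 and c-Myc, the reprogramming factors. The other was 12 subunits of TFIID: TBP, which binds the TATA box, TAF5, TAF7, and the subunits with histone folds (TAF3, TAF4, TAF4b, TAF6, TAF9, TAF10, TAF11, TAF12, TAF13). The lines iPS1 and iPS5, with 2 arrays each, had the same origin and received the same genes, so nothing here ties a value to the TFIID subunits alone. The ES cells carried the same OG2 reporter. Both kinds of cell grew on irradiated fibroblast feeders in serum with LIF, and feeder RNA can be part of either.

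Pluripotent mouse cells keep their state through a network around Oct4, Sox2 and Nanog. LIF, BMP and Wnt signals act on this network, and it keeps genes of the early germ layers low. TFIID, built from TBP and the TAF proteins, binds core promoters and positions RNA polymerase II. Reprogrammed lines are known to differ from ES cells at imprinted clusters, at genes silenced by DNA methylation such as those of the germ line, and in their responses to culture.

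Values are log2 ratios of iPS4 over the ES pool, so that 1 stands for a 2-fold higher and -1 for a 2-fold lower signal. Each is the mean of both arrays with the standard error (SE) of limma's fit to all 6 arrays, and a gene was called at an adjusted p under 0.05. Intensities are normalized log2 values of a probe in one channel. The ES pool counted as 1 sample, so its own spread is left out, and the labels do not say whether the arrays of a line had separate RNA, so p-values may measure technical spread only. In such bulk RNA, fewer cells of a type and less RNA per cell cannot be told apart. A channel was above background for 88.0% and 64.5% of probes for iPS4 on arrays 1 and 2, against 76.2% and 82.1% for the ES pool. No iPS4 signal was saturated. The arrays of iPS5 were dimmer, with a median iPS5 signal net of background of 25.9 and 17.9. It was 78.2 and 64.9 for iPS4 and 101.8 and 68.3 for iPS1. The log2 ratios of the iPS5 arrays had standard deviations of 0.25 and 0.21, against 0.29 and 0.33 for iPS4. Whether dim signal made iPS5 values smaller was not tested. Across probes, the normalized intensities of iPS4 and the ES pool correlated with r = 0.981 on array 1 and 0.977 on array 2. The log2 ratios of both arrays correlated with r = 0.766 (0.949 with the authors' deposited ratios). With the iPS1 array of the same dye, arrays 1 and 2 correlated more closely, at r = 0.781 and 0.795. With the authors' ratios these were 0.771 and 0.740, below 0.949. A term for dye orientation in limma's fit was called for 7631 of 41174 probes. Probes are not independent replicates. The value of a gene is that of its brightest probe, and where no probe count is given, other probes may not have been called.

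The signals of most genes lay close to those of the ES pool, and a small number lay far from them. Of 18295 genes, 7994 were called (43.7%), of which 3756 were higher (20.5%) and 4238 lower (23.2%) in iPS4. Only 102 of these were more than 2-fold higher (0.558%) and 221 more than 2-fold lower (1.21%). Of the genes called, 7694 had the same sign on both arrays. List counts given below compare with the shares over all genes, 20.5% higher and 23.2% lower. By probe, limma called 14939 of 41174 (36.3%), against 8429 without iPS4 replicate 1 and 7729 without iPS4 replicate 2. The number beyond 2-fold stayed near the 501 of the full fit, at 504 and 513.

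**Figure D1:**
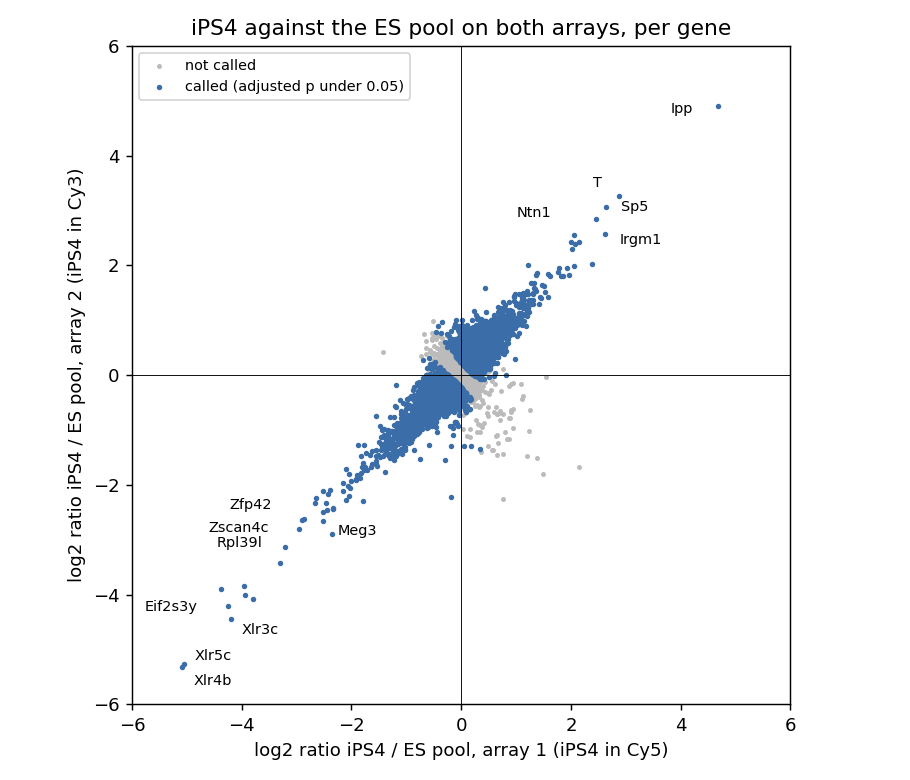
Log2 ratio of iPS4 over the ES pool for 18295 genes on array 1 (iPS4 in Cy5, horizontal axis) and array 2 (iPS4 in Cy3, vertical axis), with called genes in blue. Xlr4b, at -5.08 and -5.33, and Ipp, at 4.68 and 4.91, mark the ends of the distribution, and the named genes lie near the diagonal.

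Ipp, named after the endogenous retrovirus (an IAP element) whose promoter can drive it, headed the genes that were higher. Its intensity was 11.80 and 12.08 in iPS4, against 7.12 and 7.17 in the ES pool, a log2 ratio of 4.80 ± 0.11 (27.8-fold, adjusted p = 1.59e-06). A second probe of Ipp stood at 4.52, while 2 others stood at 0.01 and 0.07 and were not called. iPS1 and iPS5 had Ipp at 4.13 and 3.77. After it came T and Sp5, described with the Wnt genes, and then Id1, Irgm1, Ntn1, Gbx2, Tgtp2, Slc39a8 and Dync2h1. Ntn1 encodes netrin, an axon guidance cue, and had intensities of 8.37 and 8.54 in iPS4 against 6.31 and 5.99 in the ES pool (2.30 ± 0.08, adjusted p = 6.01e-06). Only 1 of its 2 probes was called. Slc39a8, a zinc and manganese transporter, rose by 2.21 ± 0.07, with 8.80 and 9.05 in iPS4 against 6.81 and 6.62 in the ES pool, and all 3 of its probes were called higher. Dync2h1, the motor heavy chain of transport inside cilia, stood at 2.21 ± 0.11, with 2 of 9 probes called. The 15 highest genes ended with Frem2 (2.16), a protein of basement membranes, Wtap (2.02), which helps methylate adenosines in mRNA, Lpar6 (1.95), a lysophosphatidic acid receptor, the imprinted zinc finger gene Plagl1 (1.90) and Smtnl1 (1.87), a gene of muscle contraction. In each of them both iPS4 channels lay above both ES channels, which the choice of the highest genes makes likely.

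At the other end stood 6 members of the Xlr family with Eif2s3y, Rpgrip1, Efhc2, Thumpd1, Rpl39l, Zscan4c, Zfp42, Chac1 and Meg3. Rpgrip1, a protein of photoreceptor cilia, had intensities of 6.47 and 6.40 in iPS4 against 10.40 and 10.41 in the ES pool (-3.97 ± 0.08), and 2 of its 5 probes were called. iPS1 had it at -4.03 and iPS5 at -2.45. Efhc2, an X-linked gene whose protein belongs to a family found in cilia, stood at -3.94 ± 0.08 and was lower with all 3 probes. The iPS1 and iPS5 values of Efhc2 were -2.43 and -2.39. Thumpd1, which acts in the acetylation of tRNA, stood at -3.36 ± 0.08, with iPS4 above background on 1 of 2 arrays, and its second probe was called in the other direction. Rpl39l, a ribosomal protein gene used in male germ cells, stood at 8.30 and 8.21 in iPS4 against 11.51 and 11.34 in the ES pool (-3.17 ± 0.04, 8.99-fold lower). Both of its probes were called lower.

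**Figure D2:**
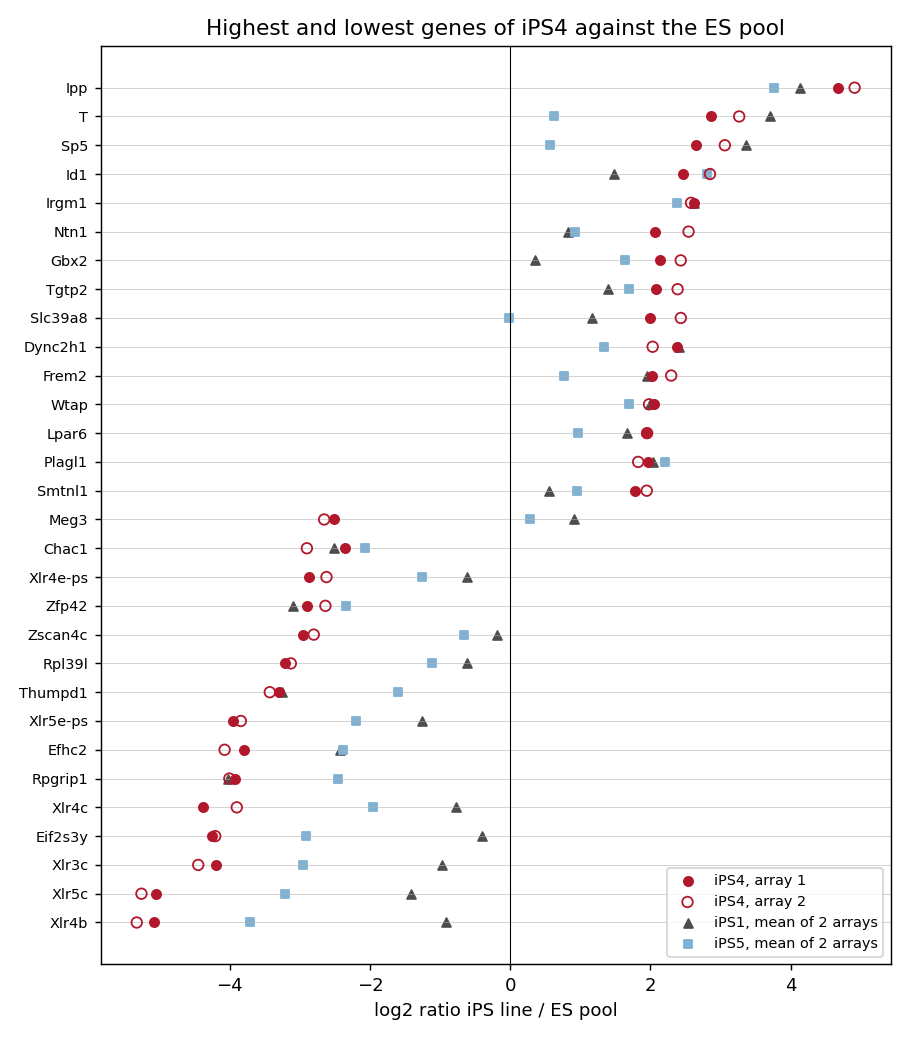
Log2 ratios over the ES pool of the 15 highest and 15 lowest genes of iPS4, with both iPS4 arrays in red (array 1 filled, array 2 open), iPS1 as dark triangles and iPS5 as blue squares. Irgm1 lies close together in the 3 lines, at 2.60 in iPS4, 2.62 in iPS1 and 2.38 in iPS5, whereas Meg3 is at -2.51 and -2.65 in iPS4, 0.90 in iPS1 and 0.28 in iPS5.

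Genes of Wnt signalling and of the primitive streak were among the highest in iPS4. Wnt ligands stabilise beta-catenin, which joins TCF factors on its target genes. T (brachyury), a target gene that marks the streak and early mesoderm, had intensities of 9.05 and 9.08 in iPS4, against 6.18 and 5.82 in the ES pool (3.07 ± 0.06, 8.38-fold, adjusted p = 1.14e-06). Sp5, a zinc finger target of the same pathway, had 8.66 and 8.80 in iPS4 against 6.01 and 5.73 in the ES pool (2.85 ± 0.07), whose channel was above background on 1 of 2 arrays. Its promoter was the only one among those of 9 members called higher in which the TCF letters CTTTGAT were found, on either strand, in the 250 bases before the start. Of all 14652 promoters of genes on the array, 2.70% held them. The sequence lies at chr2:70474673-70474922 on the plus strand (RefSeq, GRCm38.p6), with these letters in capitals.
Sp5: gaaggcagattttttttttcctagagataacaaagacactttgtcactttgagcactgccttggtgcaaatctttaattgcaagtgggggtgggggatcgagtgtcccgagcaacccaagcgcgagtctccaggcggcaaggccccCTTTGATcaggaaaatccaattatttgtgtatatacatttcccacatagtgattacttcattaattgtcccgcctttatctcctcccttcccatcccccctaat
Axin2, a feedback inhibitor of the pathway, stood at 1.61 ± 0.04 (1.21 and 2.01 on the arrays), the inhibitor Sfrp1 at 1.62 ± 0.08 and the ligand gene Wnt3 at 1.36 ± 0.05. In all, 16 of 31 measured Wnt genes were higher and 4 lower, with a median of 0.21 against -0.01 over all genes. The count of lower Wnt genes was 0 without iPS4 replicate 1 and 1 without iPS4 replicate 2. Of 22 genes of the streak and mesoderm, 11 were higher and 1 lower, with a median of 0.13. Beside T and Wnt3 these included Eomes at 0.95 ± 0.05 and Gsc at 0.84 ± 0.07, transcription factors of the streak and its anterior end, and the growth factor gene Fgf8 at 0.76 ± 0.07, which lost its call with a background offset of 0 (adjusted p = 0.0517). T stood at 3.71 in iPS1 and 0.62 in iPS5, Sp5 at 3.37 and 0.57, and Gsc at 2.38 and 0.09. iPS4 lay between the other lines in each of these 3 genes.

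Genes of BMP and of LIF and FGF signalling were called in both directions, as were all genes (20.5% higher, 23.2% lower). Id1, an inhibitor of basic helix-loop-helix factors that BMP induces, had 10.66 and 10.88 in iPS4 against 8.20 and 8.03 in the ES pool (2.66 ± 0.10, 6.31-fold). Id2 stood at 0.85 ± 0.04 and Id4 at 0.79 ± 0.05, and the ligand gene Bmp4 at 0.75 ± 0.10. Of 23 Id and BMP genes, 8 were higher and 4 lower (2 lower without iPS4 replicate 2). Among 26 genes of the LIF and FGF pathways, 9 were higher and 9 lower. Gbx2, a homeobox gene that LIF induces, had 8.98 and 9.23 in iPS4 against 6.84 and 6.79 in the ES pool (2.29 ± 0.12). Spry4, a feedback inhibitor of FGF signalling, stood at 0.43 and 1.59 on the arrays and lost its call in a fit with no dye term (adjusted p = 0.166). Fos, an immediate early gene, fell to 7.54 and 7.68 in iPS4, against 10.18 and 9.91 in the ES pool (-2.44 ± 0.06). Ier3, another early response gene, stood at -1.46 ± 0.05. Of 20 genes of Nodal signalling 7 were higher and 8 lower (5 lower without either iPS4 array in turn), and the related antagonists Lefty1 and Lefty2 moved apart, at -0.72 ± 0.04 and 0.86 ± 0.05.

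In iPS4 the defining pluripotency genes Pou5f1 (Oct4), Sox2, Nanog and Esrrb were above background on both arrays. Of 30 naive pluripotency genes, 15 were higher and 7 lower than in the ES pool, with a median of 0.19. Pou5f1 had 13.36 and 13.31 in iPS4 against 12.92 and 13.28 in the ES pool (0.24 ± 0.09, adjusted p = 0.0797, not called). Sox2 had 11.77 and 11.89 in iPS4 against 11.77 and 11.73 in the ES pool, and Esrrb had 9.71 and 9.88 in iPS4 against 9.75 and 9.58 in the ES pool, neither of them called. Pou5f1 was called higher under 5 of 16 alternatives, among them the authors' ratios (adjusted p = 0.00943) and the fit without iPS4 replicate 2 (0.47, adjusted p = 0.0114), and Esrrb under 4 of 16. Nanog stood at 0.59 ± 0.04, Dppa3 (Stella) at 0.94 ± 0.04, Nr5a2 at 0.89 ± 0.04 and Sall4 at 0.63 ± 0.04. Furthest below the ES pool stood Zfp42 (Rex1), a marker of the naive state, which had 9.33 and 9.31 in iPS4 against 12.23 and 11.94 in the ES pool (-2.77 ± 0.04, 6.82-fold lower, adjusted p = 2.82e-07). Zfp42 was lower with both probes, and at -3.10 in iPS1 and -2.34 in iPS5. The growth factor gene Fgf4, a target of Oct4 and Sox2, stood at -0.80 ± 0.06. Of 16 genes of the primed epiblast 8 were higher and 5 lower (5 higher without iPS4 replicate 2). Fgf5, which marks that state, stood at 1.50 ± 0.04 with 8.58 and 8.77 in iPS4 against 7.26 and 7.09 in the ES pool, whereas Otx2 stood at -0.92 ± 0.04.

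Of the transduced genes, 2 of 4 reprogramming factors and 8 of 12 TFIID subunits were called higher, and 2 subunits lower. Probe positions were not used, so viral and endogenous transcripts are not separated. Myc had 9.13 and 9.30 in iPS4 against 7.78 and 7.77 in the ES pool (1.45 ± 0.04), with all 3 probes higher, and Klf4 stood at 0.53 ± 0.04. Taf7 was the TFIID subunit furthest from the ES pool at 1.01 ± 0.04, with 10.89 and 11.07 in iPS4 against 10.06 and 9.88 in the ES pool. Taf13 followed at 0.48 ± 0.04, Taf12 at 0.41 ± 0.04, Taf9 at 0.33 ± 0.04 and Tbp at 0.29 ± 0.04. The count of 8 higher subunits was 1 with median centring in place of loess, where Taf7 alone kept its call. Taf11 lay at 0.28, Taf4 at 0.24 and Taf3 at 0.21. Taf6 stood at -0.25 and Taf10 at -0.18, whose 2 probes were called in opposite directions. Taf4b was near background and at 0.07, and Taf5 was at -0.06, neither of them called. Without iPS4 replicate 1 the calls of Taf6, Taf10 and Taf11 were lost (adjusted p up to 0.26 over all alternatives), and without iPS4 replicate 2 those of Taf3, Taf4 and Taf10.

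Interferon-inducible genes were higher as a group, led by GTPases that act on vacuoles of intracellular pathogens. Irgm1 had 10.66 on both arrays in iPS4, against 8.04 and 8.08 in the ES pool (2.60 ± 0.09, 6.06-fold), with 2 of 3 probes called, and Tgtp2 had 8.25 and 8.31 in iPS4 against 6.17 and 5.92 in the ES pool (2.23 ± 0.13). Of 13 such GTPases 6 were higher and none lower, with Gbp3 at 0.71 ± 0.05, Igtp at 0.65 ± 0.05 and Irgm2 at 0.58 ± 0.04. Of 33 other interferon response genes 22 were higher and 2 lower, with a median of 0.20. Without iPS4 replicates 1 and 2 in turn, 17 and 13 of these were higher. Rtp4, a chaperone of receptors, and Ifi27 both stood at 1.56, Oas2, which synthesises oligoadenylates, at 1.26 ± 0.08, Oasl2 at 1.19 ± 0.04 and Ddx58 (RIG-I), a sensor of viral RNA, at 1.01 ± 0.07. The repeat of interferon response elements (TTTC, 2 bases of any kind, TTTC) was found on either strand in the promoters of 7 of 8 GTPases with a sequence and of 10 of 25 other response genes, against 2.85% of all 14652. Irgm1 held 2 overlapping matches near its start, in capitals below, at chr11:48871421-48871670 on the minus strand.
Irgm1: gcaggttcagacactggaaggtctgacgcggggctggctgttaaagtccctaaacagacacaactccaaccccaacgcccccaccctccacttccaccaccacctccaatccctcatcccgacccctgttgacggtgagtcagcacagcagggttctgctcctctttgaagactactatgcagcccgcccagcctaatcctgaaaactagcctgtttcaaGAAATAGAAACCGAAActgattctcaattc
Genes of MHC class I, which interferon also induces, did not follow: 9 of 22 were lower and 4 higher, with H2-K1 at -0.78. H2-Q7, H2-T23 and H2-Q6 lay between -0.60 and -0.58. Without iPS4 replicate 1, 8 were lower and 1 higher, and without iPS4 replicate 2, 9 were lower and 0 higher. Members of the H2, Oas and Gbp families are alike in sequence, and probes may read relatives.

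**Figure D3:**
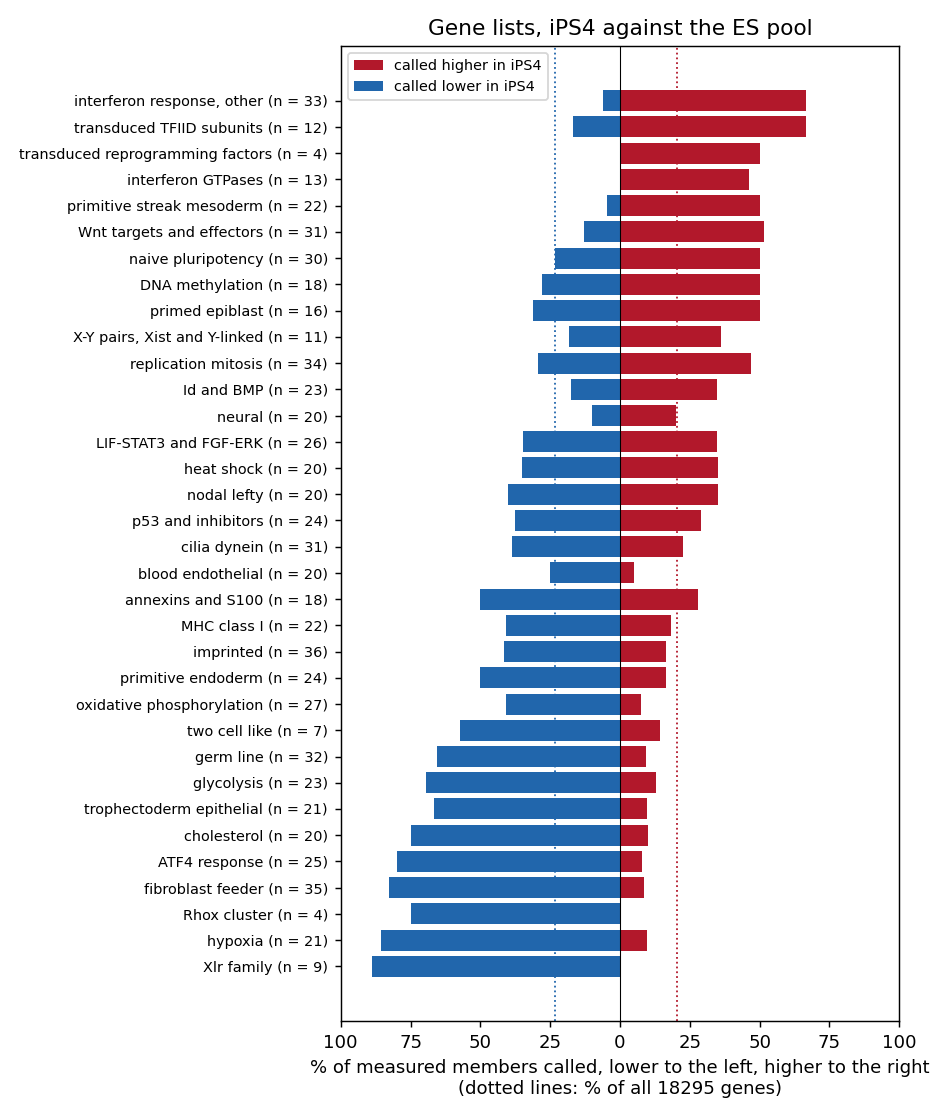
Percentage of the measured members of 34 gene lists called higher (red, right) or lower (blue, left) in iPS4, with n the number measured and dotted lines at the percentages over all 18295 genes (20.5% higher, 23.2% lower). Interferon response, Wnt and TFIID lists extend furthest to the right, and the Xlr, hypoxia, fibroblast, ATF4, Rhox and cholesterol lists furthest to the left.

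The Xlr genes showed the largest differences of the comparison. They form a cluster of near-identical X-linked copies related to the synaptonemal complex gene Sycp3 and active in germ and lymphoid cells, so each probe may read several of them. Xlr4b had 7.11 and 6.54 in iPS4, against 12.19 and 11.87 in the ES pool (-5.21 ± 0.10, 36.9-fold lower, adjusted p = 9.29e-07). A second probe of Xlr4b, dim at 6.20 and 6.17 in the ES pool, stood at -0.22. Xlr5c had 6.17 and 6.10 in iPS4 against 11.22 and 11.37 in the ES pool (-5.16 ± 0.07, 35.8-fold lower), and Xlr3c had 6.59 and 6.36 in iPS4 against 10.79 and 10.81 in the ES pool (-4.32 ± 0.05). iPS4 was thus near the low end of the signal scale for genes that were bright in the ES pool. Xlr4c (-4.14 ± 0.14), Xlr5e-ps (-3.90 ± 0.08) and Xlr4e-ps (-2.74 ± 0.10) were above background in iPS4 on 1 of 2 arrays. Counting Sycp3, 8 of 9 measured members of the list were lower and none higher. iPS1 and iPS5 were lower too, but by less: Xlr4b stood at -0.92 in iPS1 and -3.72 in iPS5, Xlr5c at -1.42 and -3.21, and Xlr3c at -0.98 and -2.95. Of the X-linked Rhox homeobox genes, expressed in germ cells and placenta, 3 of 4 measured were lower, with Rhox6 at -1.09 ± 0.05, Rhox13 at -1.06 ± 0.05 and Rhox9 at -0.79 ± 0.07. Over all 654 X-linked genes, 140 were higher (21.4%) and 146 lower (22.3%), against 20.5% and 23.2% over all genes. Genes of a state like that of 2-cell embryos, which a minority of ES cells enter at a time, were lower in 4 of 7 cases. Zscan4c had 6.82 and 6.96 in iPS4 against 9.77 and 9.76 in the ES pool (-2.88 ± 0.04), Zscan4f stood at -1.92 ± 0.05 and Usp17la at -0.98 ± 0.04. These families too hold close copies.

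Genes of meiosis and the germ line were lower in iPS4. Of 32 measured, 21 were lower and 3 higher, with a median of -0.51, and 11 were more than 2-fold lower. In iPS1 16 were lower and 7 higher (median -0.12), and in iPS5 17 were lower and 2 higher (median -0.17). Over all 18295 genes, 3879 were lower and 3931 higher in iPS1, and 2386 lower and 2556 higher in iPS5. Smc1b, a cohesin subunit of meiosis, had 6.56 and 6.74 in iPS4 against 9.04 and 9.07 in the ES pool (-2.40 ± 0.06, 5.29-fold lower). Stag3, another subunit of that cohesin, stood at -1.86 ± 0.06, Stra8, which retinoic acid induces at entry into meiosis, at -1.72 ± 0.05, and Hormad1, a protein of the meiotic chromosome axis, at -1.52 ± 0.05. Mael, which acts with piRNAs on transposons, stood at -1.65 ± 0.04, lower with 1 of 2 probes. Dazl and Nanos3 are named after their values were seen. Dazl, an RNA-binding protein of germ cells, was at -1.51 in iPS4 and 0.53 in iPS1, and Nanos3, a gene of primordial germ cells, was at 1.01 in iPS4. The defining germ cell gene Ddx4 (Vasa) was at 0.04 and not called. Without iPS4 replicates 1 and 2 in turn, 18 and 19 genes of this list were lower.

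Many of these genes are known to be held silent through E2F6 and MGA, which bind the letters TCCCGC and CACGTG. The letters CACGTG occurred in 9 of 19 promoters of germ line genes called lower and in 12 of 28 promoters of all measured germ line genes, against 7.23% of all 14652. TCCCGC occurred in 8 of 19 and in 9 of 28, against 24.1% of all. Both motifs were searched on both strands of the 250 bases before the start, and they do not overlap one another. The promoters of 3 members are shown with matches in capitals, from RefSeq on GRCm38.p6: Hormad1, with both motifs, at chr3:95559427-95559676 on the plus strand, Mael, with both, at chr1:166238745-166238994 on the minus strand, and Stag3, with CACGTG, at chr5:138280259-138280508 on the plus strand. A match is a description of letters and not a measured binding site.
Hormad1: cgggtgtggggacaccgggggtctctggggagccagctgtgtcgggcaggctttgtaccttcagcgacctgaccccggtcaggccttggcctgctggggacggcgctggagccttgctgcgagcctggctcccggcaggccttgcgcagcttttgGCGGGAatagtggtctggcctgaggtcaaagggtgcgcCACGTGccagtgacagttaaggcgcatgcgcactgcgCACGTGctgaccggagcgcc
Mael: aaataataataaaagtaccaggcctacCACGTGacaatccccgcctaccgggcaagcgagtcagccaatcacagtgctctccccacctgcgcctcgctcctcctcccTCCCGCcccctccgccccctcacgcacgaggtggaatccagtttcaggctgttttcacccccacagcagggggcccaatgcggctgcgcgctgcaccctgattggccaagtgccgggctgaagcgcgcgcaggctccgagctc
Stag3: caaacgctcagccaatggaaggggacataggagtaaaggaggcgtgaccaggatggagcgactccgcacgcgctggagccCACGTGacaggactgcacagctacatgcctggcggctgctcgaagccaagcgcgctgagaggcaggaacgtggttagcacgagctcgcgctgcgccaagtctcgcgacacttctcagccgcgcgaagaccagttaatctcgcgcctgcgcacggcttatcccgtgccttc

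**Figure D4:**
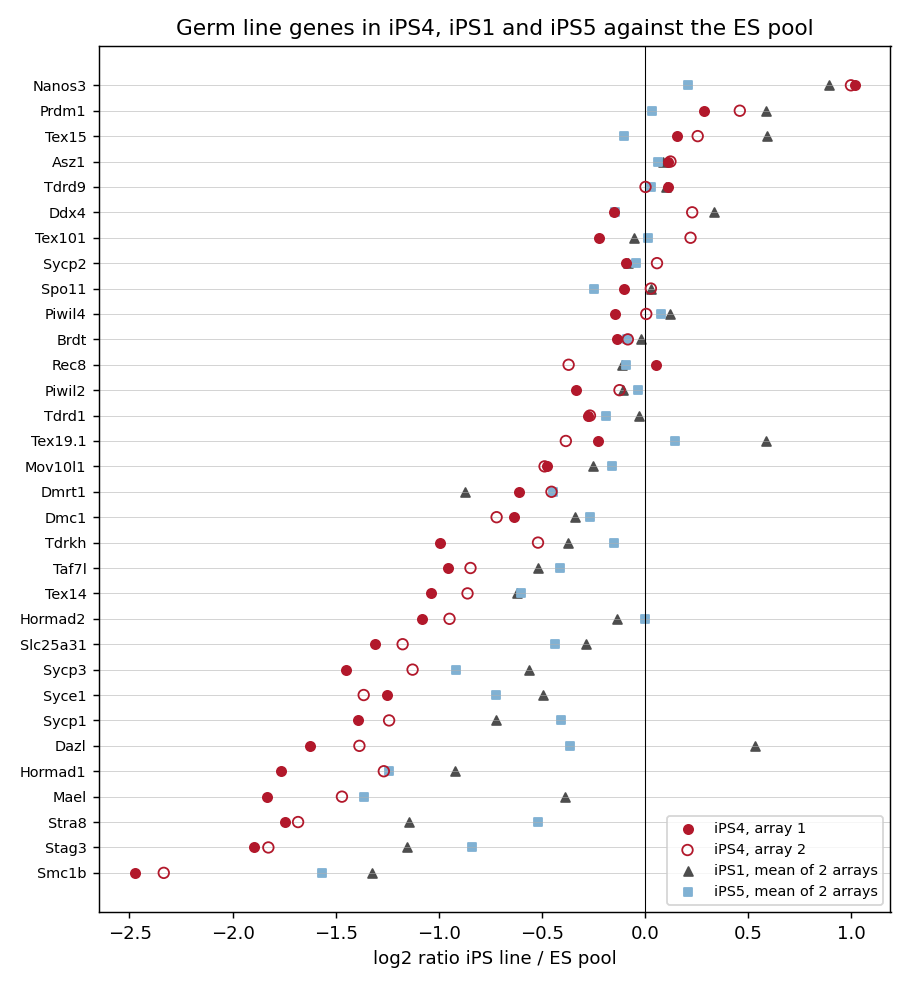
Log2 ratios over the ES pool of 32 germ line genes, with both iPS4 arrays in red (array 1 filled, array 2 open), iPS1 as dark triangles and iPS5 as blue squares. From Hormad2 to Smc1b the 11 genes at the bottom have iPS4 means between -1.02 and -2.40, and the iPS1 and iPS5 values of these genes lie mostly to the right of them. Genes are ordered by their iPS4 mean, and picking the lowest in iPS4 favours this placing of the other lines.

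Among imprinted genes, expressed from 1 parental copy, Meg3 and Grb10 showed a difference that the other lines did not share. Igf2 and Plagl1 differed from the ES pool in the same direction in all 3 lines. Meg3, a maternally expressed long non-coding RNA of the Dlk1-Dio3 cluster, had 6.76 and 6.74 in iPS4 against 9.27 and 9.39 in the ES pool (-2.58 ± 0.04, 5.99-fold lower, adjusted p = 5.40e-07). All 5 Meg3 probes were called lower, from -0.22 to -2.58. The same RNA stood at 0.90 in iPS1 and 0.28 in iPS5. A probe for Mir377, a microRNA gene downstream of Meg3 in that cluster, was at -0.59 ± 0.05 in iPS4, at 0.67 in iPS1 and at 0.19 in iPS5, with iPS4 above background on 1 of 2 arrays. The paternally expressed neighbour Dlk1 was at -0.87 ± 0.04, with 6.51 and 6.53 in iPS4 against 7.38 and 7.40 in the ES pool, and at -0.36 in iPS1 and -0.12 in iPS5. Dio3 stood at -0.12 and was not called. Grb10, an adaptor that restrains insulin signalling, had 6.46 and 6.65 in iPS4 against 8.28 and 8.44 in the ES pool (-1.81 ± 0.04), with all 3 probes lower, while iPS1 was at -0.02 and iPS5 at 0.23. Against the mean of these lines Grb10 differed by -1.91 ± 0.05 (adjusted p = 1.11e-05). The growth factor gene Igf2 stood at -2.38 ± 0.10 in iPS4, -2.41 in iPS1 and -1.59 in iPS5, and Plagl1 at 1.90, 2.04 and 2.21. Of 36 imprinted genes measured 15 were lower and 6 higher in iPS4 (3 higher without iPS4 replicate 1). The list also holds the fibroblast gene Dcn at -1.38. Among 18 genes of DNA methylation 9 were higher and 5 lower, with the maintenance cofactor Uhrf1 at 0.68 ± 0.04, the histone methyltransferase gene Setdb1 at 0.67 ± 0.04, the de novo methyltransferase gene Dnmt3a at -0.58 ± 0.05 and Gadd45b at -1.03 ± 0.07.

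Eif2s3y, a Y-linked translation factor gene active in most male cells, had 6.18 on both arrays in iPS4, against 10.44 and 10.39 in the ES pool (-4.23 ± 0.08, 18.8-fold lower, adjusted p = 7.25e-07). It was measured by 1 probe. No other Y-linked gene differed by as much. Kdm5d had 10.92 and 10.80 in iPS4 against 11.05 and 10.79 in the ES pool (-0.06, not called), Uty stood at 0.04 with 4 probes, none called, and the brightest probe of Zfy1 at 0.06. Over the 15 probes of 10 Y-linked genes, the values other than that of Eif2s3y lay between -0.30 and 0.07, and 3 of these probes were called lower. iPS1 had Eif2s3y at -0.41 and iPS5 at -2.91. Its X-linked relative Eif2s3x stood at 0.26, with 1 of 5 probes higher and 2 lower. Xist, the RNA that coats the inactive X chromosome, had 6.90 and 6.88 in iPS4 against 6.53 and 6.47 in the ES pool (0.39 ± 0.04, adjusted p = 0.000464) and lost its call with a background offset of 0 (adjusted p = 0.08).

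Genes of nutrient and oxygen stress were lower in iPS4. ATF4 switches on amino acid synthesis and transport when amino acids run short or proteins misfold. Of 25 genes of this response 20 were lower and 2 higher, with a median of -0.90. Without either iPS4 array in turn, 20 were lower and 0 higher. Chac1, which breaks down glutathione, had 8.11 and 7.71 in iPS4 against 10.46 and 10.61 in the ES pool (-2.63 ± 0.07, 6.18-fold lower). Nupr1 stood at -2.51 ± 0.08, Vldlr, a lipoprotein receptor, at -2.32 ± 0.09, the stress factor gene Ddit3 (CHOP) at -1.56 ± 0.04 and Asns, which makes asparagine, at -1.49 ± 0.05. The letters TGATGNAA of the element that ATF4 binds with C/EBP were searched on either strand. They occurred in 5 of 18 promoters of members called lower, 6 of 23 of all measured members and 2.68% of all promoters. Chac1 holds them at chr2:119350992-119351241 on the plus strand and Asns at chr6:7693210-7693459 on the minus strand, in capitals (RefSeq, GRCm38.p6).
Chac1: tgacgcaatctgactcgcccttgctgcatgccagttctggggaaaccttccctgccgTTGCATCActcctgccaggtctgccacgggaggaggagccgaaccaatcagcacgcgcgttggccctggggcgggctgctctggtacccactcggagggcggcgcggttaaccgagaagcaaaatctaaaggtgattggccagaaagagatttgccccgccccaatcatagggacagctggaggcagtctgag
Asns: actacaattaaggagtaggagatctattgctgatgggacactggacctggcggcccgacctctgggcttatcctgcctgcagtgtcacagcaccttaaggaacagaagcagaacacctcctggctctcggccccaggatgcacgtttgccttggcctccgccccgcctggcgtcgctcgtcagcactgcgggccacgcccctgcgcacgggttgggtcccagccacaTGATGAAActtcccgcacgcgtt
Of 21 genes that low oxygen induces through HIF, 18 were lower and 2 higher (1 higher without either iPS4 array in turn), with a median of -0.83. Bnip3, a mitophagy receptor, had 9.85 and 9.68 in iPS4 against 12.19 and 12.12 in the ES pool (-2.39 ± 0.05), Ddit4 (REDD1), an inhibitor of mTORC1, stood at -2.04 ± 0.07, Ero1a, an oxidase of protein folding, at -1.74 ± 0.06, the collagen prolyl hydroxylase gene P4ha2 at -1.73 ± 0.04 and the peptide hormone gene Adm at -1.59 ± 0.08. Genes of glycolysis were lower in 16 of 23 cases and higher in 3 (1 without either iPS4 array in turn), with a median of -0.75 (-0.52 on array 1, -1.04 on array 2). Pfkp stood at -1.75 ± 0.05 (2 of 3 probes called) and Aldoc at -1.38 ± 0.05 (1 of 2 probes called). Pfkl stood at -1.27 ± 0.04 and Tpi1 at -1.20 ± 0.05. The bright gene Pgk1 gave -0.19 and -2.22 on the arrays and lost its call without iPS4 replicate 2 (adjusted p up to 0.322 over its alternatives). Ldha, named after its values were seen, gave 0.76 and -2.25 and was not called. Cholesterol synthesis genes were lower in 15 of 20 cases and higher in 2, with Msmo1 at -1.20 ± 0.04, Fdps at -1.01 ± 0.04 and, above the ES pool, Ebp at 0.79 ± 0.04. Of 27 genes of oxidative phosphorylation 11 were lower and 2 higher. Without either iPS4 array in turn 7 of these were lower, with a background offset of 0 it was 4, and with median centring in place of loess it was 2. In iPS1 and iPS5 the medians were -0.90 and -0.61 for ATF4 genes, -0.72 and -0.80 for hypoxia genes, -0.43 and -0.62 for glycolysis genes, and -0.13 and -0.43 for cholesterol genes, whose median in iPS4 was -0.44.

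Markers of fibroblasts and of trophectoderm were mostly lower, while most neural and blood markers were not called. Over all genes 20.5% were higher and 23.2% lower. Of 35 fibroblast genes, which feeder cells also express, 29 were lower and 3 higher (1 higher without either iPS4 array in turn), with a median of -0.45. Anxa2, which binds membranes with calcium, had 8.25 and 8.32 in iPS4 against 10.68 and 10.49 in the ES pool (-2.30 ± 0.05), the matrix proteoglycan genes Dcn and Lum stood at -1.38 and -1.12, the matrix gene Fbln2 at -1.11 and the surface protein gene Thy1 at -1.03. The fibroblast list stood at a median of -0.55 in iPS1 and -0.14 in iPS5. The part of feeder cells in any gene described here was not tested. Markers of primitive endoderm were lower in 12 of 24 cases and higher in 4, with Fst at 0.95 ± 0.06 among the higher ones. Srgn, a proteoglycan of secretory granules, had 6.24 and 6.30 in iPS4 against 8.69 and 8.76 in the ES pool (-2.45 ± 0.05), and was at -1.47 in iPS1 and 0.90 in iPS5. The endocytic receptor genes Cubn and Lrp2, with their adaptor Dab2, stood at -1.56 ± 0.06, -1.13 ± 0.08 and -0.82 ± 0.06. The brightest probes of the defining factors Gata4 and Sox17, named after their values were seen, were at 0.03 and -0.04 and not called. Of 21 genes of trophectoderm and epithelium 14 were lower and 2 higher. The keratins Krt18 (-2.13 ± 0.05), Krt8 (-1.58 ± 0.05) and Krt7 (-1.24 ± 0.08) were furthest below the ES pool. Eomes, a transcription factor also in this list, was higher at 0.95 ± 0.05. Few neural genes were called, 4 of 20 higher and 2 lower (1 and 1 without iPS4 replicate 1, 2 and 1 without iPS4 replicate 2). Of 20 blood and endothelial genes 1 was higher and 5 lower (2 lower without either iPS4 array in turn), with the adhesion gene Pecam1, also expressed by ES cells, at -1.04 ± 0.05. Annexin and S100 genes were lower in 9 of 18 cases and higher in 5 (3 and 2 higher without iPS4 replicates 1 and 2).

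The remaining groups were called both ways, as were all genes (20.5% higher, 23.2% lower). Of 34 genes of replication and mitosis, 16 were higher and 10 lower (7 and 5 without iPS4 replicate 1, 9 and 5 without iPS4 replicate 2). Pttg1 (securin), which guards sister chromatids, had 9.87 and 9.64 in iPS4 against 11.97 and 11.92 in the ES pool (-2.19 ± 0.05), and was at -0.12 in iPS1 and -1.43 in iPS5. Birc5 (survivin) stood at -0.94 ± 0.05 and the cyclin gene Ccne1 at 0.91 ± 0.06. Heat shock genes were higher in 7 of 20 cases and lower in 7, with Hsph1 at 1.20 ± 0.04 and Hspa1a at -0.96 ± 0.04. Of 24 genes of p53 and its targets 7 were higher (3 without iPS4 replicate 2) and 9 lower, with Perp at 0.77 ± 0.05 and the apoptosis gene Bbc3 (PUMA) at -0.83 ± 0.04. Of 31 genes of cilia and dynein 7 were higher (4 without iPS4 replicate 2) and 12 lower (7 without iPS4 replicate 1).

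How iPS4 differed from iPS1 and iPS5 was tested by the contrast of iPS4 with the mean of both lines, in which the ES pool cancels. The dimmer arrays of iPS5 enter this mean, and their part in the differences was not tested. limma called 1388 of 18295 genes (7.59%), of which 496 were higher (2.71%) and 892 lower (4.88%) in iPS4. By probe, 2383 of 41174 were called (5.79%). Of the called probes 40.6% were higher in iPS4, against 15.6% with median centring in place of loess and 19.05% with no dye term. This count depended on single arrays: it was 904 and 391 without iPS1 replicates 1 and 2, 205 and 185 without iPS4 replicates 1 and 2, and 6140 and 5856 without iPS5 replicates 1 and 2. With a background offset of 0 limma called none, and 4273 had an unadjusted p under 0.05. More than 2-fold apart were 5 genes higher (0.0273%) and 31 lower (0.169%) in iPS4. Of the 1388 genes, 1209 lay outside the range of the other lines. Genes called for lying far from the mean of 2 lines tend to lie outside their range, so this is no separate support.

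The largest difference between iPS4 and the other lines was that of Meg3, at -3.18 ± 0.05 (adjusted p = 4.34e-06). Xlr4b (-2.89 ± 0.12), Xlr5c (-2.84 ± 0.08), Xlr4c (-2.77 ± 0.17), Eif2s3y (-2.58 ± 0.09), Zscan4c (-2.46 ± 0.05), Xlr3c (-2.36 ± 0.06), Rpl39l (-2.30 ± 0.05), Xlr5e-ps (-2.18 ± 0.10) and Srgn (-2.17 ± 0.06) followed. Above the other lines, Slc39a8 came first at 1.64 ± 0.09, with 2.21 in iPS4, 1.16 in iPS1 and -0.01 in iPS5. Ntn1 followed at 1.43 ± 0.10, Lrrc34 at 1.31 ± 0.05, Gbx2 at 1.29 ± 0.14, Smtnl1 at 1.11 ± 0.08 and Spink1, a trypsin inhibitor gene, at 0.98 ± 0.05. Spink1 had 8.04 and 8.10 in iPS4 against 7.03 and 7.05 in the ES pool, while iPS1 and iPS5 stood at -0.02 and 0.11. Lrrc34 was at 1.47 in iPS4, -0.35 in iPS1 and 0.69 in iPS5. Accsl stood 0.89 ± 0.05 above the other lines, Ipp 0.85 ± 0.14 and Irak3, which dampens Toll-like receptor signalling, 0.81 ± 0.11. Phlda2, an imprinted growth regulator of the placenta, differed by 0.84 ± 0.05, with iPS4 at -0.09, near the ES pool, and iPS1 at -1.54 and iPS5 at -0.32. The calls of Ipp and Irak3 were lost without iPS4 replicate 1, iPS4 replicate 2 or iPS1 replicate 2, and that of Gbx2 without iPS4 replicate 1.

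By list, germ line genes were lower than the mean of the other lines in 17 of 32 cases and higher in 1, primitive endoderm genes in 12 of 24 and 0, Xlr genes in 8 of 9 and 0, and imprinted genes in 9 of 36 and 2. Without the line iPS1, which leaves iPS5 alone to compare with, 13 germ line genes were lower and 3 higher, 14 and 2 endoderm genes, 7 and 0 Xlr genes, and 6 and 0 imprinted genes. Without the line iPS5 the counts were 22 and 1, 9 and 3, 8 and 0, and 15 and 5 in the same order of lists. Over all 41174 probes, 2685 were called without the line iPS1 and 7739 without the line iPS5.

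Other lists differed from the mean of both lines but not from each line. Counts against 1 line alone came from the fits without the other line. Of 41174 probes these called 2685 against iPS5 and 7739 against iPS1, so their list counts are not on one scale. Interferon response genes outside the GTPases were lower in 14 of 33 cases and higher in 1, yet against iPS5 alone 2 were lower and 3 higher, and against iPS1 alone 21 were lower and 1 higher. MHC class I genes were lower in 9 of 22 cases and higher in 0, with 0 called either way against iPS5 alone and 16 lower and 1 higher against iPS1 alone. Naive pluripotency genes were higher in 8 of 30 cases and lower in 1, but against iPS5 alone the direction turned, with 3 higher and 10 lower, while against iPS1 alone 21 were higher and 2 lower. The median of these lists in iPS4 lay between those of the other lines, for interferon at 0.20 in iPS4, 0.55 in iPS1 and 0.17 in iPS5, and for naive genes at 0.19 in iPS4, -0.32 in iPS1 and 0.26 in iPS5. Glycolysis genes were lower in 8 of 23 cases and higher in 2, and cholesterol genes lower in 6 of 20 and higher in 0. Against iPS5 alone these were 3 and 2 glycolysis genes and 2 and 2 cholesterol genes, and against iPS1 alone 15 and 2, and 18 and 0. ATF4 genes were lower in 5 of 25 cases and higher in 0, and hypoxia genes lower in 3 of 21 and higher in 0. Against iPS5 alone 11 ATF4 genes were lower and 0 higher, and 3 hypoxia genes lower and 2 higher. Against iPS1 alone 4 ATF4 genes were lower and 3 higher, and 8 hypoxia genes lower and 3 higher.

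These list counts fell when an iPS4 array or iPS1 replicate 2 was left out, by the smallest share for the Xlr genes. The count over all probes, given above, fell in the same fits. Whether a list fell by more or less than all probes was not tested. Without iPS4 replicates 1 and 2 in turn, 8 and 9 germ line genes, 6 and 3 endoderm genes, 1 and 1 interferon genes, 1 and 2 MHC genes, 3 and 3 imprinted genes, 1 and 0 glycolysis genes and 0 and 0 cholesterol genes were lower, and 2 and 1 naive genes higher. Without iPS1 replicate 2, 9 germ line, 4 endoderm, 4 interferon, 2 MHC, 3 imprinted, 0 glycolysis and 0 cholesterol genes were lower.

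Genes of chromosome 8 were more often lower than those of other chromosomes. Of its 894 genes 332 were lower (37.1%) and 108 higher (12.1%), against 23.2% and 20.5% over all genes. The median of its 737 genes above background was -0.09, with -0.08 on array 1 and -0.12 on array 2, against -0.01 over all such genes. In iPS1 and iPS5 it was -0.07 and -0.04. Chromosome 12, with Meg3, Dlk1 and Fos, had 179 of 560 genes lower (32.0%) and 112 higher, with a median of -0.04. The 3 lines share the ES pool, so a deviation of the pool would appear in all of them. No test was made between chromosomes.

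**Figure D5:**
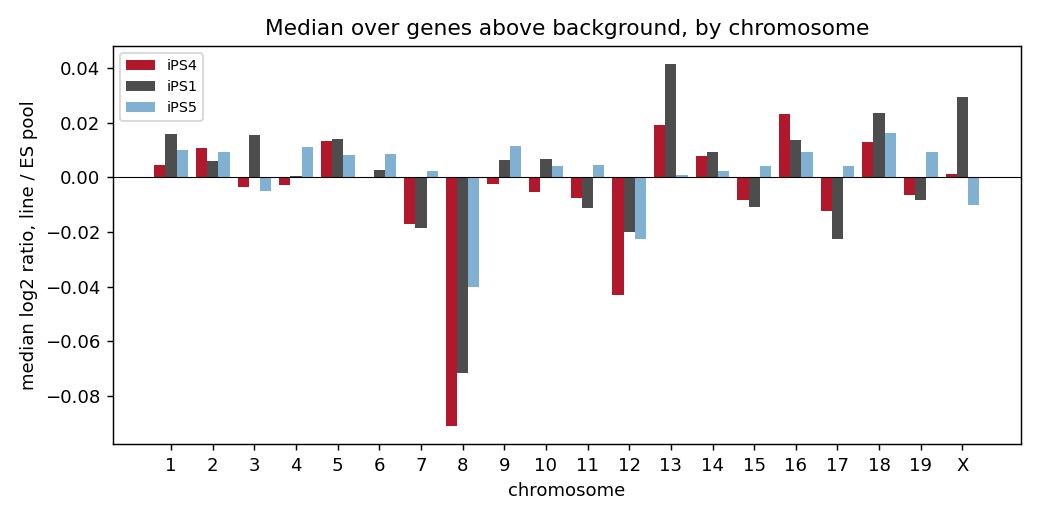
Median log2 ratio over the ES pool of genes above background on each chromosome, for iPS4 (red), iPS1 (dark) and iPS5 (blue), with chromosome Y left out for its few genes. Chromosome 8 is lowest in all 3 lines, at -0.09 in iPS4, -0.07 in iPS1 and -0.04 in iPS5.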

How the data were processed

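Total RNA was amplified and labelled with Cy5 or Cy3 and hybridised to 2-colour oligonucleotide arrays. The deposited raw files hold spot intensities with local background for each channel, per the file headers, and scanner software is not given in the sources used here. The authors also deposited normalized log2 ratios per spot (their scale and direction were checked against the raw intensities), and a table of mean log2 ratios and p-values over the 3 lines, of which the authors' p-values were not used here.

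Intensities were corrected with normexp (offset 50) and normalized by loess within each array with control spots at weight 0, in limma 3.58.1 under R 4.3.3 (statmod 1.5.0). All ratios were turned to iPS over ES. A linear model with 1 coefficient for each line and a dye term was fitted to the 6 arrays (2 residual degrees of freedom), and two-sided moderated tests were adjusted by Benjamini-Hochberg over 41174 gene probes. The number of arrays limits the precision. A channel was above background over percentile 95 of the 604 spots of a dim control reporter. Of the probes, 30365 carried a current symbol and 3726 a synonym in the RefSeq table of GRCm38.p6, and a gene was represented by its brightest probe. For example, 1 of 2 probes was called for each of Oasl2, Dcn, Pecam1, P4ha2, Msmo1 and Fdps. The steps were tested on simulated data.

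Members and gene lists were chosen with earlier results of these data known. Named genes were the 15 highest and 15 lowest called genes with the same sign on both arrays, and the 10 highest and 10 lowest of iPS4 against the other lines that lay outside their range. They also comprised the transduced genes, Nanog, Zfp42 and Esrrb, up to 5 called members of each list by size, and called neighbours of named genes. Unnamed transcripts were passed over. Alternatives were other background corrections and normalizations, the authors' ratios, a filter on dim probes, a fit with no dye term, and each array or line left out.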

Additional observations from a re-analysis of the deposited data

Results flagged for a closer look

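The 20 genes named for iPS4 against the mean of iPS1 and iPS5 differed between the lines by limma's contrast of the lines itself, with values as log2 differences. Below the other lines were Meg3 at -3.18, the Xlr genes Xlr4b at -2.89, Xlr5c at -2.84, Xlr4c at -2.77, Xlr3c at -2.36 and Xlr5e-ps at -2.18, the Y-linked Eif2s3y at -2.58, Zscan4c at -2.46, Rpl39l at -2.30 and Srgn at -2.17. Above them were Slc39a8 at 1.64, Ntn1 at 1.43, Lrrc34 at 1.31, Gbx2 at 1.29, Smtnl1 at 1.11, Spink1 at 0.984, Accsl at 0.894, Ipp at 0.85, Phlda2 at 0.835 and Irak3 at 0.814. All 20 lost their call with a background offset of 0, where adjusted p-values lay between 0.0541 and 0.451. Groups of 2 arrays are too small to check for outlying samples.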

How the results depend on the processing

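For iPS4 over the ES pool the 14939 probes became 7475 with a background offset of 0, 7690 with median centring and 8418 with no dye term, and 7729 to 18263 when 1 array was left out. For iPS4 against the mean of the other lines the 2383 probes became 0 with offset 0 (4273 at an unadjusted p under 0.05), 90 with median centring, 709 with arrays scaled to a common spread, 126 with no dye term and 7739 without the line iPS5, and 185 to 6140 when 1 array was left out. Against iPS1 alone, 3743 became 0 (5358 unadjusted), 265, 2155 and 584 under the same first 4 settings, and 641 to 7739 with 1 array left out. For iPS4 against iPS5 in the same fit, 4436 became 0 (7117 unadjusted), 146, 2841 and 250, and 617 to 6964. The authors' ratios gave 14443, 1824, 3276 and 3458 for these comparisons.

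Of 172 called genes named over the ES pool, 144 kept their call under every alternative run and 28 lost it under at least 1. All 20 genes named against the other lines lost theirs with offset 0. The sign turned for Sox2, at -0.013 without iPS4 replicate 1 and 0.17 without iPS4 replicate 2, and, as means over all probes, for Taf10 (0.094), Eif2s3x (-0.18) and Ddx3x (-0.10). Of 34 list medians 6 changed sign under an alternative. The cause of these changes was not tested. No paired analysis was possible because the labels give no replicate numbers that pair the lines; the dye term already groups the arrays of the lines by dye orientation, and the fit with no dye term is given above. The raw files gave no slide or scan batch, so a batch block was not run. List counts under the alternatives were added after seeing the data. Dim signals limit what can be called: 64.5% of probes were above background in iPS4 on array 2.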
